A study of Mus musculus with 12 samples.

Results

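The 8 genes described here encode receptors by which neutrophils sense chemoattractants: Cxcr2, Cxcr4 and Ccr1 for chemokines, Fpr1 and Fpr2 for formyl peptides, C5ar1 for the complement fragment C5a, Ltb4r1 for leukotriene B4 and Ptafr for platelet-activating factor (PAF). They were chosen by name, for their known function, and all 8 symbols were found in the deposited table of 11911 genes. Their levels were measured by bulk RNA-seq of mouse (Mus musculus) heart neutrophils, in 6 libraries whose genotype label reads Control (2, 6, 7, 8, 11 and 12) and 6 whose genotype label reads LOY, loss of the Y chromosome (3, 4, 5, 10, 14 and 15). Every library title names a control transplant (BMT) and every treatment label reads control. The groups rest on the genotype label and on the code in the title, which ends in C for control and in KO for LOY. For each library, 800 cells of the gate CD45.2+ Ly6G+ CD64- RFP+ were sorted from digested left ventricles. The labels give the same gate for both groups, and that both were transplanted rests on the titles. The labels do not give what the RFP marks, how the Y chromosome was lost, or the strain, age and sex of the mice. Nor do the labels say that the libraries came from separate mice, so the p-values measure only the spread between libraries.

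Chemoattractant receptors are 7-helix receptors that couple mainly to inhibitory G proteins, and through the released beta-gamma subunits activate PI3K-gamma and phospholipase C, calcium release and movement up the gradient. CXCR2, which binds CXCL1 and CXCL2, promotes the exit of neutrophils from bone marrow and their recruitment into tissue, whereas CXCR4, the receptor of CXCL12, holds them in marrow. The formyl peptide and C5a receptors respond to end-stage attractants made by bacteria, by mitochondria of dying cells or by complement, while leukotriene B4 and PAF relay the signal between neutrophils and neighbouring cells. After activation most of these receptors are phosphorylated by G protein-coupled receptor kinases, bound by arrestins and taken into the cell.

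The reads of the listed genes came to 6767108 to 12561174 per library (control 7176250 to 12561174, LOY 6767108 to 10203723). As a check of the labels, 3 of 9 listed Y-linked genes were in the table: Ddx3y, Eif2s3y and Uty. Their summed level was 1032 to 1972 normalised reads in control libraries and 0 to 59.3 in LOY libraries. Ddx3y alone was at 400 to 1341 in control and 0 to 51.6 in LOY libraries. Eif2s3y was as low as 0.83 in control libraries, and Uty was at 0 in 8 libraries. Of 15 neutrophil markers, 14 passed the filter on low values, with a summed level of 258562 to 617224 in control and 236346 to 411913 in LOY libraries. Ly6g, the gene of the sorting antigen, was low at RNA level, 436 ± 391 normalised reads in control and 185 ± 244 in LOY neutrophils (SD, n = 6 each), and was at 0 in 1 library. RNA of other cells was present too: the sum of 15 cardiomyocyte markers ran from 4774 to 8289 in control and from 4918 to 67455 in LOY libraries, highest in LOY 10.

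All 8 receptors had reads in all 12 libraries. Their lowest counts were 134 reads for Ltb4r1 in LOY 10 (95% Poisson interval 112 to 159, counting error only) and 343 for Cxcr4 in control 7 (308 to 381). The remaining 6 receptors had at least 390 reads in each library. By mean level in normalised reads, 75.0% of the 6951 genes tested lay below Ltb4r1, 82.5% below Fpr2, 84.8% below Cxcr4 and between 92.7% and 98.9% below the remaining 5. The plot of values by library shows how wide the scatter was within each genotype: the highest library held 2.99 times the lowest for Cxcr2, 3.66 times for Ccr1, 3.71 times for C5ar1 and 14.0 times for Ltb4r1.

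**Figure D1:**
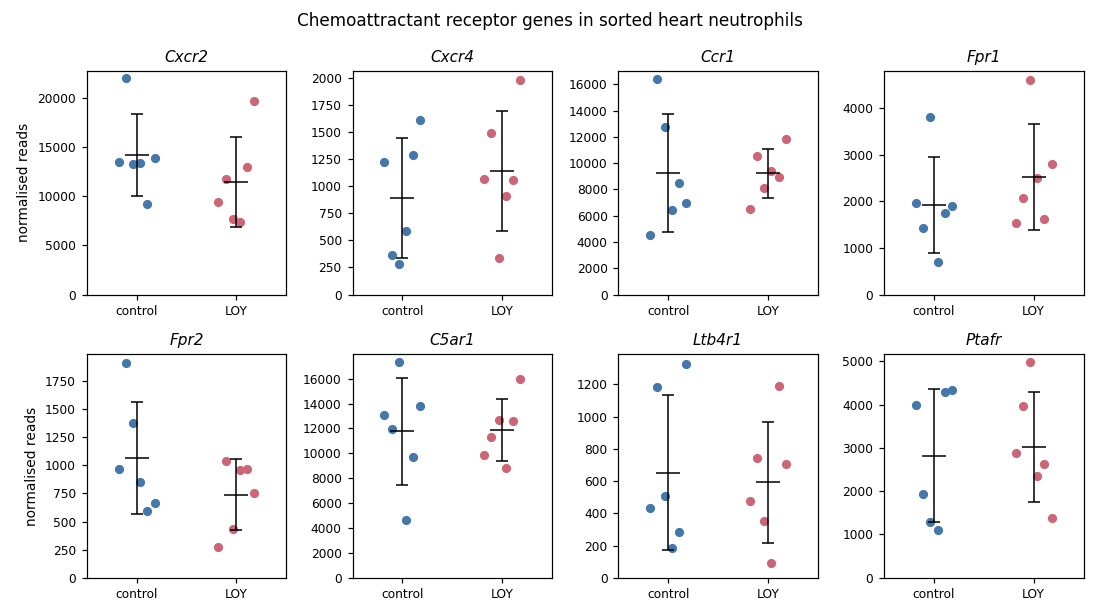
Normalised reads (linear axis from 0) of the 8 receptor genes in each of the 6 control and 6 LOY libraries, with 1 point per library and the group mean ± SD in black. The control and LOY points overlap for all 8 genes, from Ltb4r1 at 94.6 in LOY 10 up to Cxcr2 at 21963 in control 6.

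Levels of different genes were compared as normalised reads per kilobase of exon, within a library. C5ar1, at 4598 ± 1299 per kilobase (SD, n = 12), Cxcr2, at 4204 ± 1447, and Ccr1, at 3263 ± 1151, were the most abundant receptor transcripts. Fpr1 followed at 1680 ± 816. Ptafr at 804 ± 371, Fpr2 at 694 ± 333, Cxcr4 at 562 ± 300 and Ltb4r1 at 447 ± 296 made up the lower range. C5ar1 was first in 9 libraries and Cxcr2 in the other 3, and Ccr1 was ranked 2 or 3 in all 12. The first 3 receptors held 64.7% to 81.3% of the summed per-kilobase level of the 8, with a median of 73.4%.

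Of the 7 pairs of neighbours in this order, 2 differed beyond the spread between libraries in a two-sided exact sign-flip permutation test adjusted over the 7. Ccr1 exceeded Fpr1 by 1.03 on the log2 scale in 11 of 12 libraries (adjusted p = 0.00513), and Fpr1 exceeded Ptafr by 1.08 in 12 of 12 (adjusted p = 0.00342, from the smallest p the test can give, 0.000488). C5ar1 and Cxcr2 differed by 0.14 (adjusted exact p = 0.505) and Cxcr2 and Ccr1 by 0.37 (0.0877), so neither pair of neighbours among the first 3 passed, and C5ar1 against Ccr1 was not tested. The 3 pairs of neighbours among the lower 4 differed by 0.20, 0.39 and 0.44 and did not pass either (adjusted exact p from 0.489 to 0.569), and pairs further apart in the order were not tested. In the 6 control libraries alone, 0 of 7 neighbours passed, and Fpr2 and Ptafr, like C5ar1 and Cxcr2, changed places. With 6 libraries the exact sign-flip test could not go below an unadjusted p of 0.0312, which was the value for Ccr1 over Fpr1 (adjusted exact p = 0.219).

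**Figure D2:**
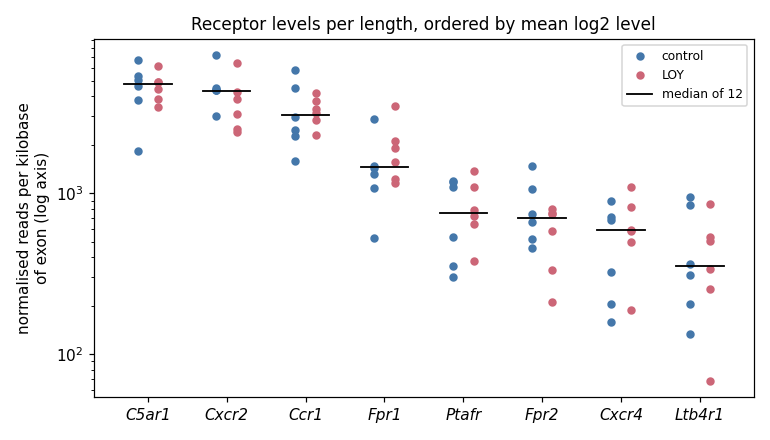
Normalised reads per kilobase of exon (log axis) of the 8 receptors, 1 point per library (control blue, LOY red), ordered by mean log2 level, with a line at the median of 12. The medians fall from 4775 for C5ar1, 4304 for Cxcr2 and 3073 for Ccr1 to 351 for Ltb4r1.

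Between genotypes, 0 of the 8 receptors passed an adjusted p of 0.05 in limma on log2(normalised reads + 1), where 0.0288% of the 6951 genes tested passed in all (2 genes). In DESeq2 on the recovered reads, where 3.12% of genes passed, the count was again 0 of 8, and so it was in edgeR's quasi-likelihood test, which called no gene. None of the 8 had an unadjusted p under 0.05 in any of the 3 tools, against 304 of all genes tested in limma. The receptors did not share a direction: 5 had a higher and 3 a lower fitted value in LOY libraries, with a median log2 fold change of 0.10, beside 0.01 over all genes tested, 50.4% of which were positive. In bulk samples, fewer neutrophils and less RNA per neutrophil cannot be told apart.

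Cxcr2 (ENSMUSG00000026180), the main receptor for neutrophil-recruiting CXC chemokines, lies on the plus strand at chr1:74153989-74161246 (GRCm38). Control libraries held 9172 to 21963 normalised reads with a median of 13394, and LOY libraries 7351 to 19613 with a median of 10576. The groups overlapped, but 5 of 6 LOY libraries were below the control median, and only LOY 15 was above it. Means were 14166 ± 4192 in control and 11463 ± 4567 in LOY neutrophils (SD, n = 6 each). The log2 fold change was -0.34 (SE 0.26, 95% interval -0.91 to 0.22, adjusted p = 0.997 in limma). An interval from 0.534-fold to 1.16-fold was therefore not separated from no change.

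Cxcr4 (ENSMUSG00000045382; chr1:128588199-128592293, minus strand), the CXCL12 receptor that retains neutrophils in marrow, was more scattered. Control libraries ran from 284 in control 7 to 1613 in control 12 with a median of 905, and LOY libraries from 339 in LOY 5 to 1978 in LOY 15 with a median of 1063. High and low libraries stood side by side within each genotype, with coefficients of variation of 61.8% in control and 48.6% in LOY. The log2 fold change was 0.45 (SE 0.54, interval -0.70 to 1.60, adjusted p = 0.999).

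Ccr1 (ENSMUSG00000025804; chr9:123962124-123968692, minus strand) binds CC chemokines such as CCL3 and CCL6. It ranged from 4495 in control 2 to 16436 in control 6 with a control median of 7727, and from 6532 to 11811 in LOY libraries with a median of 9176. All LOY values thus fell inside the control range, and 5 of 6 were above the control median. Group means were nearly equal, 9265 ± 4471 and 9223 ± 1841, and the log2 fold change was 0.10 (SE 0.29, interval -0.52 to 0.73, adjusted p = 0.999).

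Fpr1 (ENSMUSG00000045551; chr17:17876471-17883940, minus strand) is the high-affinity formyl peptide receptor. Control libraries held 697 in control 8 to 3806 in control 7 with a median of 1827, and LOY libraries 1532 in LOY 3 to 4612 in LOY 5 with a median of 2290. The lowest library was a control and the highest an LOY library, with overlap between. The log2 fold change was 0.46 (SE 0.39, interval -0.38 to 1.30, adjusted p = 0.997).

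Fpr2 (ENSMUSG00000052270; chr17:17887824-17893952, plus strand) also recognises lipoxin, annexin and serum amyloid ligands. Its values ran from 593 in control 11 to 1908 in control 6 with a control median of 912, and from 274 in LOY 3 to 1040 in LOY 4 with an LOY median of 855. LOY 3 and LOY 5, at 433, were under all controls, while the other 4 LOY libraries lay within the control range. The log2 fold change was -0.55 (SE 0.44, interval -1.50 to 0.40, adjusted p = 0.997), the lowest fitted value of the 8.

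Fpr2 shares stretches of sequence with other genes, which bears on how its reads were counted. The coding sequences of Fpr1 and Fpr2 were 69.4% identical in a global alignment (800 of 1153 columns). Of the stretches of 50 bases in Fpr2 transcripts, 31.5% (408 of 1295) also occurred in transcripts of Fpr1, Fpr3 or the gene model Gm5966, and the annotated Fpr3 gene overlaps Fpr2 on the same strand by 48 exon bases. Only 1 of 1275 such stretches of Fpr1 recurred in another gene, Fpr2. The other shared stretches of Fpr2 were therefore shared with Fpr3 or Gm5966, not with Fpr1. The sources used here do not give how the counting treated reads that fit several genes, so Fpr2 counts are uncertain to that extent. The single stretch shared by both is shown in capitals, with 20 bases on each side from GENCODE M21 on GRCm38, to let the copies be compared.
Fpr1, chr17:17877260-17877349, minus strand: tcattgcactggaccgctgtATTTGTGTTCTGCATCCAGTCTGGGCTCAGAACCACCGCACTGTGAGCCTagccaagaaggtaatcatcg
Fpr2, chr17:17893096-17893185, plus strand: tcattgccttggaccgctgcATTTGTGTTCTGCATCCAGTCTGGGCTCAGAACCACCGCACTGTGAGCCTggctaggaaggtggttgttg
The capitals are 50 coding bases, 397 to 446 of Fpr1 and 373 to 422 of Fpr2, and the flanks already differ between the genes. In Cxcr2, 6.68% of 50-base stretches recurred elsewhere and in Ptafr 1.64%, while Cxcr4, Ccr1, C5ar1 and Ltb4r1 had none.

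C5ar1 (ENSMUSG00000049130; chr7:16246743-16259540, minus strand), the receptor of the anaphylatoxin C5a, ranged from 4670 in control 8 to 17344 in control 7 with a control median of 12514. LOY libraries held 8856 to 15945 with a median of 11952, all within the control range and equally divided about the control median. Means were 11763 ± 4280 and 11871 ± 2491, and the log2 fold change was 0.09 (SE 0.28, interval -0.51 to 0.70, adjusted p = 0.999).

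Among the lipid mediator receptors, Ltb4r1 (ENSMUSG00000046908; chr14:55765962-55768494, plus strand), the high-affinity leukotriene B4 receptor, varied most of the 8. It ran from 186 in control 8 to 1326 in control 12 with a control median of 468, and from 94.6 in LOY 10 to 1188 in LOY 14 with an LOY median of 589. The 3 highest values came from both genotypes, control 12, LOY 14 and control 6. The log2 fold change was -0.15 (SE 0.68, interval -1.61 to 1.31, adjusted p = 0.9995), and it was positive without control 6, without control 12 or without LOY 10.

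Ptafr (ENSMUSG00000056529; chr4:132564067-132582683, plus strand) encodes the PAF receptor. Control libraries fell apart into 3 between 1101 and 1940 (6, 7 and 8) and 3 between 3978 and 4337 (2, 11 and 12), with a median of 2959, whereas LOY libraries were spread from 1381 to 4972 with a median of 2746. The LOY values filled the gap between the low and the high controls. The log2 fold change was 0.21 (SE 0.42, interval -0.70 to 1.11, adjusted p = 0.999).

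**Figure D3:**
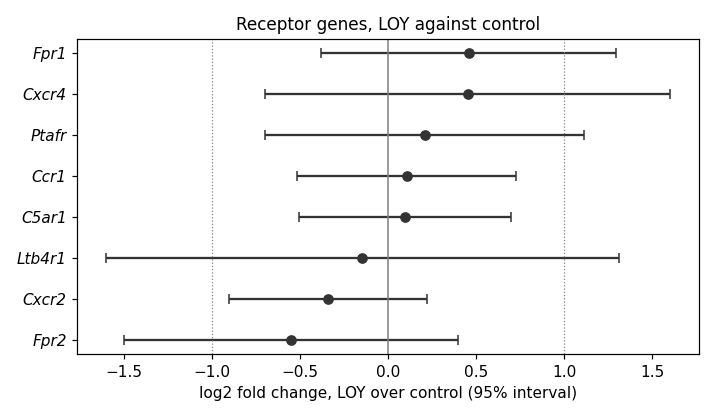
Log2 fold change of LOY over control for the 8 receptors, with 95% intervals from limma on log2(normalised reads + 1) and n = 6 libraries per group. All 8 intervals cross 0, from Fpr2 at -0.55 to Fpr1 at 0.46, and those of Cxcr2, Ccr1 and C5ar1 lie within 1 log2 unit of 0.

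What the 6 libraries per group allowed differed between the receptors. For Cxcr2, Ccr1 and C5ar1 the 95% interval lay within 1 log2 unit on both sides of 0, as it did for 5.68% of all genes tested (395 genes). For the other 5 receptors a change of 1 log2 unit in at least 1 direction was inside the interval and so was not excluded. Coefficients of variation in control and LOY libraries were 29.6% and 39.8% for Cxcr2, 48.3% and 20.0% for Ccr1, where the 350 tested genes with a mean of 3000 to 30000 had medians of 34.6% and 37.9%. Ltb4r1, at 73.7% and 63.5%, compared with medians of 66.9% and 64.6% for the 2884 genes with a mean of 300 to 3000. In the authors' deposited table the log2 fold changes of the 8 were between -0.52 (Fpr2) and 0.39 (Fpr1), and each had an adjusted p of 0.999. DESeq2 on the recovered reads gave the same values, so they are not a separate result.

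A pair of ratios compares receptors within a library, where the library scaling cancels. Cxcr2 exceeded Cxcr4 in all 12 libraries. The Cxcr2 to Cxcr4 ratio of normalised reads was 59.6 in control 6, 46.6 in control 7 and 22.8 in control 8, but 11.0, 8.57 and 7.14 in controls 2, 12 and 11. In LOY libraries it was 7.91 to 12.3 in 5, with LOY 5 at 22.6. The mean log2 ratio was 4.22 ± 1.30 in control and 3.43 ± 0.57 in LOY neutrophils (SD, n = 6 each), a difference of -0.79 that was within the spread of the libraries (two-sided exact permutation p = 0.225, adjusted over the 2 ratios 0.225).

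The Fpr1 to Fpr2 ratio was 0.750 in control 6 and 0.815 in control 8, the only libraries where Fpr2 had more normalised reads, and 2.03 to 2.94 in the other 4 controls. In LOY libraries it was lowest in LOY 14, at 1.67, and highest in LOY 3 and LOY 5, at 5.59 and 10.6. The groups overlapped, and the mean log2 ratio was 0.81 ± 0.92 in control and 1.82 ± 1.00 in LOY libraries. The difference of 1.01 did not pass (two-sided exact permutation p = 0.108, adjusted over the 2 ratios 0.216, 924 assignments). The uncertainty of the Fpr2 counts described above, which lies mostly in sequence shared with Fpr3 or Gm5966, applies to this ratio too.

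**Figure D4:**
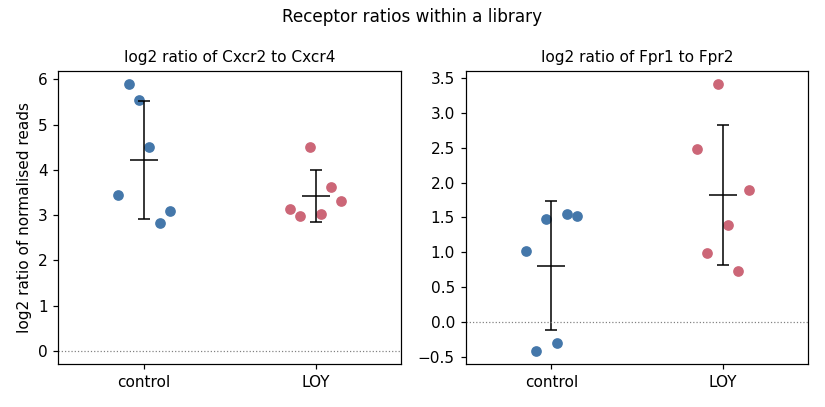
Log2 ratio of Cxcr2 to Cxcr4 and of Fpr1 to Fpr2 in each library, with the group mean ± SD in black and a dotted line at equal reads. The mean Cxcr2 to Cxcr4 ratio was 4.22 in control and 3.43 in LOY libraries and the mean Fpr1 to Fpr2 ratio 0.81 and 1.82, and the libraries of both genotypes overlap.

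The summed level of the 8 receptors was 42547 ± 10543 normalised reads in control and 40575 ± 8446 in LOY neutrophils (SD, n = 6 each), with overlapping ranges of 27919 to 57211 and 32031 to 54989. They took 0.307% to 0.701% of a library's reads over the listed genes. As shares of the summed per-kilobase level, Cxcr2 held 28.9% ± 7.8 in control and 23.0% ± 5.2 in LOY libraries, C5ar1 27.3% ± 6.5 and 28.9% ± 2.1, and Fpr1 8.61% ± 3.41 and 12.1% ± 5.4. These shares were not tested.

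Over the 12 libraries, 20 of the 28 receptor pairs had a positive Pearson r of log2(normalised reads + 1), 4 had an unadjusted permutation p under 0.05, and 0 passed adjustment over the 28. The highest was Fpr1 with C5ar1, the formyl peptide and C5a receptors (r = 0.74, permutation p = 0.0089, adjusted 0.248; rho = 0.56, permutation p = 0.063, adjusted 0.442). Within genotypes r was 0.93 in control and 0.33 in LOY libraries, and without LOY 5 and control 8 it was 0.55. Cxcr2 with Ltb4r1 had r = 0.65 (permutation p = 0.022, adjusted 0.302; rho = 0.59, permutation p = 0.049, adjusted 0.442), 0.62 in control and 0.72 in LOY libraries, and 0.47 without LOY 10 and LOY 5. Fpr1 and Fpr2, neighbours on chromosome 17, had r = -0.08 (permutation p = 0.817, adjusted 0.915; rho = -0.03, permutation p = 0.922). Cxcr4 with Ptafr had r = 0.86 within control and -0.71 within LOY libraries, and Cxcr2 with Cxcr4 had -0.51 and 0.77; neither difference between genotypes was tested.

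The genes most like each receptor over the 12 libraries were taken as those of highest r among 4115 genes with reads in every library. They are a description, since the highest of so many values is high by selection. For C5ar1 they were Selplg, the P-selectin ligand of leukocytes (r = 0.94, and 0.83 without control 7 and control 8), Spi1, which encodes the myeloid transcription factor PU.1 (r = 0.93, and 0.77 without them), and Dleu2 (r = 0.90, and 0.63). In control 8, where C5ar1 was lowest at 4670, Spi1 and Selplg were also lowest, at 3642 and 9527 normalised reads. For Ptafr the closest gene was Sh2d3c, a signalling adaptor, with r = 0.96, rho = 0.97 and r = 0.92 without control 7 and control 8. For Cxcr2 it was the chaperone gene Dnaja1 (r = 0.91, and 0.83 without LOY 5 and LOY 10), and for Cxcr4 the chromatin remodeller Smarca5 (r = 0.91, and 0.80 without LOY 5 and control 7). The closest to Fpr1 was the gene model Gm1840 (r = 0.90, and 0.69 without LOY 5 and control 8), and to Ltb4r1 Ikbkap (r = 0.85, and 0.76 without LOY 10 and control 12). Ccr1 and Fpr2 had less close genes, Selenof at r = 0.83 and Slfn1 at r = 0.82. The libraries share their depth and their admixture of other cells across all these genes.

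**Figure D5:**
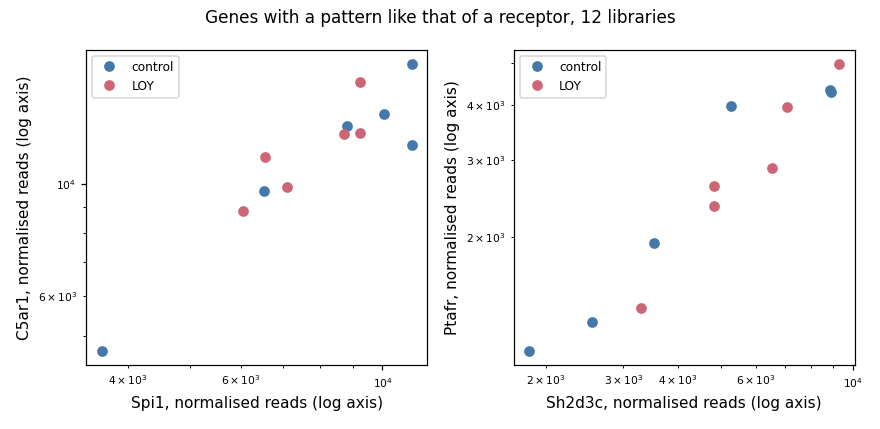
Normalised reads (log axes) of C5ar1 against Spi1 and of Ptafr against Sh2d3c, 1 point per library (control blue, LOY red). C5ar1 and Spi1 are both lowest in control 8, at 4670 and 3642, and r over the 12 libraries was 0.93 for this pair and 0.96 for Ptafr with Sh2d3c.

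Because Spi1 was among the genes most like C5ar1, the 250 bases before each receptor's start (RefSeq, GRCm38.p6) were searched on both strands for AGGAAG, the core of PU.1 sites, and for TTNNGNAA, the core of C/EBP sites. AGGAAG was present in 3 of 8 receptor promoters, those of Cxcr2, C5ar1 and Ltb4r1, and in 29.5% of 32851 promoters of the same length. TTNNGNAA was present in 5 of 8 and in 36.9% of all promoters. The promoters of C5ar1 and Cxcr2, the most abundant receptors, are shown 5′ to 3′ in the direction of the gene, with the matches in capitals.
C5ar1, chr7:16259339-16259588, minus strand: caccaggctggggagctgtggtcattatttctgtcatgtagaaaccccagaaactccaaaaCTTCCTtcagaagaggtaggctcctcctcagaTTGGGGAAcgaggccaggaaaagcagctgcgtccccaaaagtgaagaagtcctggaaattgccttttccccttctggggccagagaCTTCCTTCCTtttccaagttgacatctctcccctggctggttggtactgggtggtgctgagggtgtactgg
Cxcr2, chr1:74153744-74153993, plus strand: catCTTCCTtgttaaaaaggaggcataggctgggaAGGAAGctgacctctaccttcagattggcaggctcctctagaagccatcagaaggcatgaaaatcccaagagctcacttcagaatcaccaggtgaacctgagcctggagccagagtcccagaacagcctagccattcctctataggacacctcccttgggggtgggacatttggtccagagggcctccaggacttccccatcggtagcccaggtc
The C5ar1 window holds 3 matches to AGGAAG, all read as CTTCCT on this strand and 2 of them overlapping, and 1 match to TTNNGNAA, and the Cxcr2 window holds 2 matches to AGGAAG. The windows lie before the RefSeq starts, and the GENCODE coordinates given above differ. By GENCODE, C5ar1 reaches to 16259540, inside its window, and all marked C5ar1 matches lie within the gene. The Cxcr2 matches lie before the gene by both annotations. Such matches are descriptions of the letters, not evidence of binding.

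The other genes of the pathway were grouped by role, and 0 members of these lists passed in limma or DESeq2 in either direction, with an unadjusted p under 0.05 in limma for Cxcr5 and Ccl9. Of 23 other chemoattractant receptors, 16 were in the table and 10 were tested, with 3 positive and 7 negative fold changes and a median of -0.39, beside 0.01 over all genes. The smallest p belonged to Cxcr5, the follicular homing receptor of B cells, at 523 ± 514 normalised reads in control and 99.1 ± 165 in LOY libraries (log2 fold change -5.07, adjusted p = 0.997 in limma). Cxcr5 was at 0 in 2 libraries. The B cell markers summed to 1607 to 8375 in control and 658 to 4338 in LOY libraries, and their part in the Cxcr5 value was not tested. Gpr35 (-1.22), the purinergic receptor P2ry2 (0.81) and the second C5a receptor C5ar2 (-0.94) followed, each with adjusted p = 0.997. Ccrl2, named here because its level was seen to be high, had 5666 normalised reads per kilobase, above the means of all 8 receptors. Cxcr1 was low, at 101 ± 118 in control and 202 ± 185 in LOY libraries, and at 0 in 3 libraries.

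Of 17 ligands of the 8 receptors, 14 were in the table and 11 were tested, with 7 positive and 4 negative fold changes and a median of 0.03. Ccl9, a ligand of Ccr1, had the smallest p, with 579 ± 236 normalised reads in control and 338 ± 590 in LOY libraries (log2 fold change -3.74, SE 1.53, adjusted p = 0.997 in limma). Its values ran from 248 to 969 in control and from 1.05 to 1506 in LOY libraries. Ccl3, another Ccr1 ligand, was at 4228 ± 1318 and 6412 ± 3807 (0.43), the Fpr2 ligand gene Anxa1 at 18688 ± 4916 and 15990 ± 7766 (-0.32), and the platelet chemokine Pf4 at 66.2 ± 66.0 and 162 ± 113 (1.29).

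Of 10 genes for the synthesis and breakdown of leukotriene B4 and PAF, 8 were tested, with 3 positive and 5 negative fold changes and a median of -0.06. The PAF-making enzyme Lpcat2 had a log2 fold change of -0.37, 5-lipoxygenase (Alox5) 0.39, leukotriene A4 hydrolase (Lta4h) -1.09 (SE 1.71) and the phospholipase Pla2g4a -0.998 (SE 1.91). Mean levels of Lta4h were close, at 192 ± 179 normalised reads in control and 199 ± 210 in LOY libraries, with 1 library at 0. Pla2g4a was at 143 ± 227 and 80.9 ± 101, with 2 libraries at 0.

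Downstream, 22 of 24 genes of G protein and PI3K-gamma signalling were tested, 8 positive and 14 negative, with a median of -0.15. Plcb2, the phospholipase C activated by the beta-gamma subunits, was at 441 ± 480 in control and 933 ± 591 in LOY libraries (log2 fold change 2.02, adjusted p = 0.997), and the inhibitory G protein gene Gnai2 at 7282 ± 2530 and 5175 ± 2506 (-0.53). The Rac activator gene Prex1 had 0.63 and the small GTPase gene Rap1a -0.58. Of 15 symbols listed for desensitisation, which include Adrbk1 and Adrbk2 as older names of Grk2 and Grk3, 12 were tested. Fold changes were positive for 7 and negative for 5, with a median of 0.32. The receptor kinases Grk6 and Grk5 had -1.36 and 2.55, the regulator Rgs14 -1.35 (SE 0.95) and the arrestin gene Arrb1 2.55. Grk5 was at 0 in 3 and Arrb1 in 2 libraries. Rgs14 was at 2234 ± 866 normalised reads in control and 1444 ± 775 in LOY libraries, with a lowest LOY value of 19.8.

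Of the tested markers of other cell types 0 passed in limma. DESeq2 called 4 cardiomyocyte markers (Myh6, Myh7, Ttn and Actc1) higher in LOY libraries. It also called 1 macrophage marker (Lyve1) and 1 red cell marker (Alas2) lower. Lyve1 and Alas2 stayed under the filter on low values and were not tested in limma. Lyve1 was at 0 in 8 libraries and Alas2 in 10. The markers called by DESeq2 are named after their values were seen. All 15 cardiomyocyte markers had positive fold changes in limma with a median of 1.86, and 6 had an unadjusted p under 0.05, as had 2 endothelial markers and 1 fibroblast marker. The lowest LOY sum of the cardiomyocyte markers, 4918 in LOY 5, lay within the control range. Positive too were 6 of 6 tested fibroblast markers with a median of 1.88 and 7 of 9 tested endothelial markers with a median of 1.70. Of 6 tested B cell markers 5 were negative, with a median of -1.20, as were 4 of 4 tested red cell and platelet markers, with a median of -2.53. Macrophages also express Ccr1, Fpr1, C5ar1 and Ptafr. Of 13 macrophage markers 10 were tested, 2 positive and 8 negative with a median of -0.10, and their sum was 11586 to 16565 in control and 6296 to 36184 in LOY libraries. In a setting chosen after the data were seen, the mean log2 level of the 15 cardiomyocyte markers, not their sum, was added as a covariate. With it 0 of 8 receptors passed, while Cxcr4 turned to -0.11, Ccr1 to -0.0592 and Ltb4r1 to 0.36, and Ptafr went from 0.21 to 0.54. The part of the macrophage RNA in the receptor levels was not tested.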

How the data were processed

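The authors deposited 1 table for the 12 libraries, with a signal column for each: per the file headers and from the values, a gene's reads after division by a factor of that library ("normalised reads" in the text). The same deposited table gives the authors' log2 fold change, p-value and adjusted p-value per gene. The sources used here do not name the tool for either. Per the labels' protocols, cDNA was made with SMART-Seq v4 and libraries with Nextera XT, which keep neither strand nor molecular identifiers. The Poisson intervals of the lowest read counts therefore cover counting error only. The intervals of the fold changes come from limma and rest on the spread between libraries. The submitters' processing notes list Subread 1.5.2 with featureCounts, STAR 2.5.2b, Trimmomatic 0.36 and bcl2fastq 2.17, on GRCm38 (mm10). All values above 0 (100% within 0.01 of a read) were whole multiples of 1 step per library, which gave back the reads.

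Genes that reached 10 normalised reads in 6 or more libraries (6951) were tested with limma 3.58.1 (trend, robust) on log2(normalised reads + 1), all 12 libraries, genotype as the only term, p adjusted by Benjamini-Hochberg over all genes tested. The pseudocount of 1 narrows log2 ratios between low values. The fold changes compare means of log2 values, so libraries near 0 can make them larger than, or opposite to, the difference in mean reads. For Cxcl12 the log2 fold change was -0.20, with means of 246 normalised reads in control and 445 in LOY libraries. The recovered reads were tested with DESeq2 1.42.0 (303 genes called of 9723) and edgeR 4.0.16 (0 of 7054). The limma script was tested on simulated data. Exon lengths and coordinates came from GENCODE M21, which matched 11896 identifiers; 17 symbols that had become dates and 8 blank ones were replaced from it. RefSeq promoters (GRCm38.p6) matched 8 of 8 receptors.

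The receptors and all lists were chosen with earlier results of these data known. By rule, all 8 receptors are named, the 4 tested genes of smallest p in each pathway list, and up to 3 genes most like each receptor. Protein sequences were not used here.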

Additional observations from a re-analysis of the deposited data

How the results depend on the processing

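No receptor passed an adjusted p of 0.05 under any of the 22 alternatives, whose lowest adjusted p was 0.867 (Fpr1 with the cardiomyocyte covariate), and 163 of 176 receptor fold changes kept their sign. Cxcr2 (-0.52 to -0.21), Fpr1 (0.20 to 0.78) and Fpr2 (-0.75 to -0.30) kept it in all 22. Ccr1 turned to -0.00656 in DESeq2, -0.0217 in edgeR and -0.0592 with the covariate, and C5ar1 to -0.00222 in edgeR and -0.0699 with array weights. With the covariate Cxcr4 turned to -0.11 and Ltb4r1 to 0.36, and Ptafr went from 0.21 to 0.54. Leaving out 1 library gave Ccr1 -0.0775 to 0.30, C5ar1 -0.15 to 0.23, Cxcr4 0.18 (without control 7) to 0.76 (without LOY 5), Ltb4r1 -0.44 to 0.31 and Ptafr -0.0198 to 0.41, where C5ar1 and Ptafr turned without control 8, and Ltb4r1 without control 6, control 12 or LOY 10. The cause of these turns was not tested. Over all genes, the 2 calls of limma became 303 in DESeq2, 0 in edgeR, 0 without the filter, 0 with a mean of at least 50, 0 with the covariate and 0 to 4 without 1 library. Of the neighbours in level, 2 passed over all libraries and 0 in the 6 controls. The ratio differences stayed between -1.07 and -0.46 for Cxcr2 to Cxcr4 and between 0.69 and 1.23 for Fpr1 to Fpr2 without 1 library, and neither passed. No paired analysis was possible because control and LOY libraries share no number in the labels.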

Other observations

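Some other chemoattractant receptors in the table stayed under the filter on low values and were in no comparison. C3ar1, the receptor of the complement fragment C3a, was at 46.8 ± 80.8 normalised reads in control and 138 ± 211 in LOY libraries (SD, n = 6 each) and at 0 in 1 library. S1pr1, the sphingosine 1-phosphate receptor, was at 182 ± 293 and 155 ± 202. The lymphocyte receptors Cxcr3 and Cxcr6 were at 0 in 8 and in 11 libraries, and Ackr3, which scavenges CXCL12, was at 0 in 8.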
